A study of Mus musculus with 13 samples.

Results

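Before any activin was given, FOXL2 and acetylated histone H3 lay mostly in different places in LβT2 cells. This established mouse line stands for the pituitary gonadotrope, which makes the gonadotropins LH and FSH. The regions described here come from the 4 vehicle libraries for these targets. A region counted when a peak stood in both replicate libraries of an antibody, with peaks merged where they shared at least 1 bp. All 12 peak lists of the study merged into 146702 regions. In a separate merge of the vehicle regions alone, 85821 were bound by FOXL2 or acetylated in this sense. FOXL2 alone stood at 54119 of them, acetylation alone at 20810, and both at 10892. Counted from each side, the shared regions held 14629 of 68748 FOXL2 regions and 11437 of 32247 acetylated regions.

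Chromatin immunoprecipitation with sequencing (ChIP-seq) was done with an antibody to the FLAG tag, called FOXL2 here, and with one to histone H3 acetylated at lysine 27 (H3K27ac). All cells were stably transduced with a lentiviral cassette that makes GFP all the time and, on doxycycline, FLAG-tagged mouse FOXL2 with a fluorescent reporter, so FOXL2 here is the tagged, induced protein and the libraries hold no measurement of the cells' own FOXL2. After 24 h of recovery came 48 h of doxycycline. The cells then spent 2 h in medium with 2% serum and 1 h with vehicle, and were cross-linked with 1% formaldehyde. Each antibody had 2 vehicle libraries, each pooled from 3 plates. Whether the 2 came from separate cultures is not stated, so the spread between them may be technical, and 1 cell line stands for the cell type. The other lists of the study are SMAD2/3 with vehicle and all 3 targets after 1 h of 1 nM activin A, 2 libraries each. A Protein-A control was not analysed here. Whether it was the background of the authors' peak values is not given in the sources used here.

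FOXL2 is a forkhead transcription factor of the pituitary gonadotrope and of the ovarian granulosa cell. In gonadotropes it is known to act with SMAD proteins on Fshb, the gene of the FSH β subunit. Acetylation of H3 lysine 27 marks active promoters and active enhancers, so a FOXL2 site inside an acetylated region lies in chromatin that carries an activity mark. For a site outside, no such region was called in both libraries, which does not show that the mark was absent. Forkhead factors bind a short core related to TGTTTAC, and some of them can bind closed chromatin.

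Promoter letters were available for 32817 windows in RefSeq's GRCm38.p6 table, each 250 bases before to 50 after a start, and 598 of them held the strongest summit of a FOXL2 region. The forkhead core TGTTTAC, read on both strands (its other strand is GTAAACA), stood in 12.5% of these 598 (75 windows, 95% Wilson interval 10.1 to 15.4). It stood in 12.2% of the 433 that also touched an acetylated region and in 13.3% of the 165 that did not, intervals that overlap. Among 8393 acetylated windows without a FOXL2 summit it stood in 1.94%, and over all windows in 3.65%. Base composition differed between these groups, and its part in the motif shares was not tested. Windows with a FOXL2 summit had a median GC content of 53.3% and a median of 16 CpG where acetylated, and 48.3% and 7 CpG where not. The median GC content was 61.3% in acetylated windows without a summit and 52.7% over all windows. The motif GTCAAGG, searched on both strands, was in 3.51% of windows with a summit and 3.18% of all. The motif CAAGGTCA, also searched on both strands and able to share letters with the former, was in 4.68% and 1.56%. The next sequences are the 80-base stretches upstream of the start that hold the core, for the protein-coding genes of highest FOXL2 rank, 3 acetylated and 3 not, shown because the same 7 letters, in capitals, occur in both kinds.

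Pbld1: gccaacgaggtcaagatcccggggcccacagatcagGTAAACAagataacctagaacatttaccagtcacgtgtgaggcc
A630073D07Rik: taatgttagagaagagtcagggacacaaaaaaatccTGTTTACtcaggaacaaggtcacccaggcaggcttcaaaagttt
Ndufaf1: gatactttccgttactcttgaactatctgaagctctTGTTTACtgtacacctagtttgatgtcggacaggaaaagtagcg
Nepn: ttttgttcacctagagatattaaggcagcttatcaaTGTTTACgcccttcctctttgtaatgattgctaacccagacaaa
Yipf4: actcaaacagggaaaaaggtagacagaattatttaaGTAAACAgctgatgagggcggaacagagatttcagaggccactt
Hibadh: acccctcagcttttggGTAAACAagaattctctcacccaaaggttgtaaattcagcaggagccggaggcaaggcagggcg

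The first 3 windows touched an acetylated region: Pbld1 at chr10:63060506-63060585 on the + strand, A630073D07Rik at chr6:132627564-132627643 on the - strand, and Ndufaf1, an assembly factor of mitochondrial complex I, at chr2:119662862-119662941 on the - strand. The other 3 did not: Nepn at chr10:52391414-52391493 (+), Yipf4 at chr17:74489313-74489392 (+) and Hibadh, an enzyme of valine breakdown, at chr6:52640471-52640550 (-). The FOXL2 summit lay 5 bp from the core in A630073D07Rik and in Ndufaf1, 0 bp in Yipf4 and 2 bp in Hibadh, but 60 bp away in Nepn and 157 bp in Pbld1. FOXL2 rank at Yipf4 was 78.4 in replicate 1 and 91.2 in replicate 2, and at Ndufaf1 73.3 and 84.9, values that overlap between the kinds. Rank means the percentile of a peak by −log10 q within its own list, 100 being the strongest. A match of letters is a description and not a measured site.

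FOXL2 and acetylation differed in length and number of peaks before any overlap was taken. The FOXL2 lists held 86401 and 83834 peaks with median widths of 310 and 305 bp. The H3K27ac lists held 41150 and 40398 peaks with median widths of 710 and 692 bp. The labels state 20000000 reads per library. The reads reached in each library cannot be read from peak lists, and their part in the list lengths was not tested. The smallest −log10 q was 1.33 and 1.30 in the FOXL2 lists and 1.00 and 1.01 in the H3K27ac lists, so the lists did not end at the same q. The part of peak calling and its cutoff in the widths, numbers and overlap was not tested.

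Of all FOXL2 regions, 21.3% overlapped an acetylated region (95% Wilson interval 21.0 to 21.6), and of all acetylated regions 35.5% held FOXL2 (34.9 to 35.99). These intervals cover counting error only, and neighbouring regions are not independent. Between single libraries the first share ran from 19.1% to 22.6% over the 4 pairings and the second from 31.8% to 35.9%. FOXL2 replicate 2 gave the higher value in each case. The shares depend on the lists: with −log10 q of at least 5 required of both antibodies, 13.7% of FOXL2 regions were acetylated, and with the FOXL2 lists cut to their 40398 strongest peaks, 22.6% of acetylated regions held FOXL2. Median −log10 q was 14.7 and 12.9 in the FOXL2 lists and 4.76 and 4.38 in the H3K27ac lists, so the cut at 5 removed a larger part of the H3K27ac peaks. A further 2360 FOXL2-only regions (4.36%) touched an H3K27ac peak of 1 library, and 2796 acetylated-only regions (13.4%) a FOXL2 peak of 1 library, so these stood just outside the shared set.

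The kinds sat at different parts of genes. Promoters, the class the authors' annotation gives to peaks at a transcription start, made up 31.3% of acetylated-only regions, 9.36% of acetylated regions with FOXL2, 8.75% of FOXL2 regions that were acetylated and 2.61% of FOXL2-only regions. Introns held 55.8% of FOXL2-only regions and 38.2% of acetylated-only regions, and intergenic sequence held 34.4% and 21.7%. Shared regions lay near the FOXL2-only values, with 53.1% in introns and 32.0% between genes on the FOXL2 side.

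**Figure D1:**
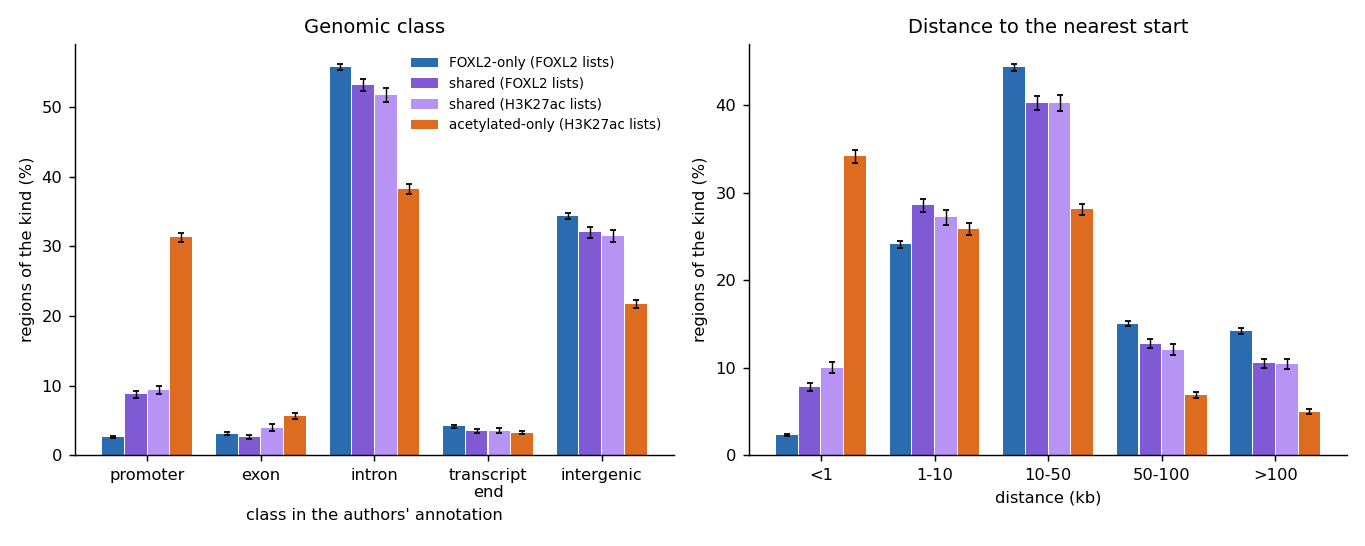
Share of regions of each kind (%) by genomic class (left) and by distance to the nearest start in kb (right), as the mean of the 2 libraries of the antibody named, with error bars over their 95% Wilson intervals. Acetylated-only regions reach 31.3% at promoters, and the other kinds stay under 10%.

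In the deposited lists, promoter peaks made up 4.41% ± 0.892 (SD, n = 2) of FOXL2 peaks and 20.7% ± 0.113 (SD, n = 2) of H3K27ac peaks. The groups did not overlap, and the exact two-sided permutation test gave p = 0.333, the smallest value 2 libraries against 2 allow. Among FOXL2 regions the promoter share was higher where they were acetylated in each library, by 6.12 and 6.17 percentage points (exact two-sided sign-flip p = 0.5, the smallest possible for 2 libraries). Both libraries score nearly the same regions, so the closeness of these values is not independent replication. Over the 4 pairings of single lists the difference ran from 5.92 to 9.45 points, and it was 2.66 points with the FOXL2 lists cut to 40398 peaks and 9.75 points without FOXL2 replicate 1. Among acetylated regions the order was opposite: with FOXL2 minus without, the promoter share differed by -21.9 points in replicate 1 and -22.0 in replicate 2, and by -17.5 to -12.5 points over the pairings.

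Read the other way, 47.6% of the 2687 promoter FOXL2 regions were acetylated (45.7 to 49.5) against 20.2% of the FOXL2 regions elsewhere (19.9 to 20.5). By contrast, 14.2% of the 7628 acetylated promoter regions held FOXL2 (13.4 to 15.0), while 42.7% of intronic and 44.4% of intergenic acetylated regions did. Acetylation was thus more frequent at a FOXL2 site when the site was a promoter, and FOXL2 was less frequent in an acetylated region when that region was a promoter. Acetylated promoters without FOXL2 were not the short ones alone. In the narrowest quartile of acetylated regions (192 to 616 bp) promoters made up 6.66% of those with FOXL2 and 31.4% of those without in replicate 1, and in the widest quartile (2011 bp and more) 8.30% and 21.3%.

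Distance to the nearest start followed the classes. The median was 24217 bp for FOXL2-only regions, 17736 bp for shared FOXL2 regions, 17038.5 bp for the acetylated regions that held them and 5229.8 bp for acetylated-only regions. Over the 4 pairings the difference of the medians, shared minus FOXL2-only, ran from -7430.5 to -6620 bp, so the shared ones lay closer. More than 10 kb from a start lay 73.6% of FOXL2-only and 63.6% of shared FOXL2 regions, and within 1000 bp lay 2.29% and 7.84%. Of acetylated-only regions 34.2% lay within 1000 bp. In the authors' tables the class and the nearest start can refer to different transcripts: 39.0% and 39.3% of promoter-class FOXL2 regions in the 2 libraries lay more than 1000 bp from the start given. With promoters taken as centres within 1000 bp of that start, the FOXL2 difference was 5.55 points and the acetylated one -24.2 points.

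FOXL2 was dense inside acetylated chromatin even though most of its regions lay outside. Acetylated regions covered 52.9 Mb and held 219.3 FOXL2 summits per Mb in replicate 1 and 219.6 in replicate 2, against 22.8 per Mb in the 2503 Mb outside, counted on each chromosome from its first to its last FOXL2 region, ratios of 9.60 and 9.62. The inside value was not general: the narrowest quartile of acetylated regions held 86.3 per Mb in each library, and the widest 252.2 and 252.5. In the first 500 bp beyond an edge of any acetylated region the density was 148 and 147 per Mb. From 500 to 1000 bp it was 44.1 and 45.1. From 1 to 2 kb it was 46.4 and 45.9, from 10 to 20 kb it was 39.9 per Mb in each library, and it reached 6.66 per Mb more than 100 kb away. The sequence more than 100 kb away covers 1219 Mb. How much of it short reads can map to was not tested.

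**Figure D2:**
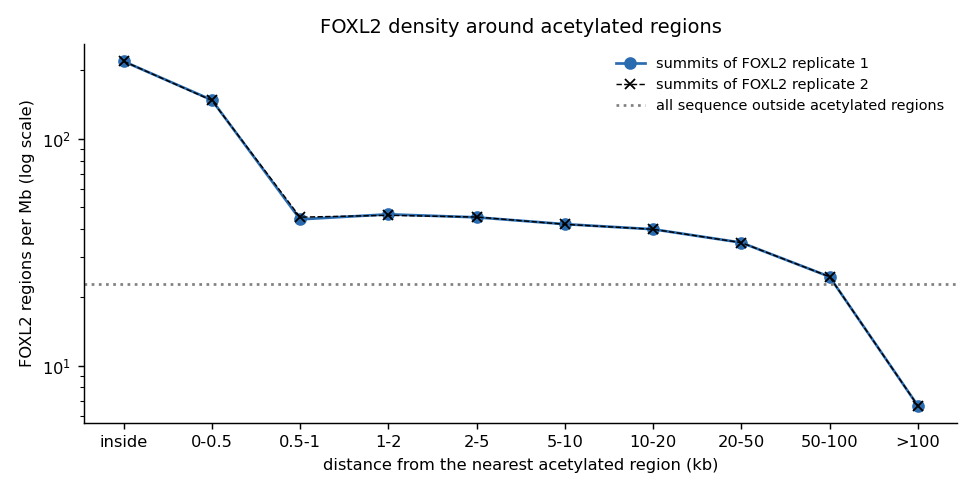
FOXL2 regions per Mb (log axis) in zones of distance from the nearest acetylated region in kb, by the strongest summit in each FOXL2 library, with the density over all sequence outside as a dotted line. The 2 libraries lie on each other, from 219 per Mb inside to 6.66 per Mb beyond 100 kb.

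Within acetylated chromatin, promoter regions held fewer FOXL2 sites per Mb than the rest. The values were 110.6 and 111.7 per Mb against 242.9 and 243.0, ratios of 2.20 and 2.18. Density also rose with region width, from 86.3 per Mb in the narrowest quartile to 252.2 and 252.5 in the widest. These promoter densities were not taken within width quartiles, so the part of width in the difference was not tested. Even these promoters lay 4.84 and 4.89 times above the sequence outside. In acetylated regions of at least 1000 bp, 69.3% and 69.1% of the summits lay in the middle 50% of the region, 910 and 911 bp from the nearer edge in the median. FOXL2-only regions were 22440 bp from the nearest acetylated region in the median, 30.7% lay within 10 kb, and 175 of them (0.323%) sat between acetylated regions within 1000 bp on both sides.

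Most acetylated regions with FOXL2 held 1 FOXL2 region (8854), 1900 held 2, 442 held 3 and 241 held 4 or more. The most, 21, lay in an acetylated stretch of 51230 bp at chr3:15193808-15245037, intergenic and nearest to the long noncoding RNA gene Gm33819. A stretch of 30363 bp nearest to Gm20407 held 20. Both were chosen after their values were seen.

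Strength of FOXL2 gave no single order. By −log10 q, the median rank of shared FOXL2 regions was 63.4 in replicate 1 and 67.5 in replicate 2, and that of FOXL2-only regions 58.9 and 56.3, differences of 4.47 and 11.2 with the same sign (exact sign-flip p = 0.5, the smallest possible). By the authors' fold enrichment the difference was -5.21 in replicate 1 and 1.42 in replicate 2, so its direction turned (mean -1.89). By −log10 q the libraries also differed in sign when the summit had to lie inside an acetylated region (mean 3.40) or −log10 q had to be at least 5 (mean 3.14). The share of FOXL2 regions that were acetylated stayed between 17.4% and 19.4% in the lower 6 deciles by −log10 q and reached 33.4% in the top decile. By fold enrichment it was highest at the bottom, 33.3% in the lowest decile, 17.5% in the fourth and 24.0% in the highest. Many weakly enriched FOXL2 regions thus lay in acetylated chromatin, beside some of the strongest by significance.

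Acetylated regions with FOXL2 were wider. Their median width was 1446 bp in replicate 1 and 1401 bp in replicate 2, against 796 and 736 bp without FOXL2. The part of width in the overlap was not tested. The share with FOXL2 ran from 20.0% in the narrowest decile to 73.7% in the widest. Median H3K27ac rank was 64.0 and 63.6 with FOXL2 and 57.8 and 56.6 without. Within width quartiles the order turned in the 3 narrower ones: in the narrowest the replicate 1 rank was 30.5 with and 40.5 without FOXL2, in the second 42.0 and 52.0, and in the third 58.0 and 66.0. In the widest it was 85.9 with and 82.0 without FOXL2, but there the regions with FOXL2 were still wider, by 568.8 bp in the median. Over all widths the mean difference was 6.599. It moved to 10.6 without FOXL2 replicate 1, 12.8 without H3K27ac replicate 1, 11.3 without H3K27ac replicate 2, 1.91 with the FOXL2 lists cut to 40398 peaks and 18.3 when the FOXL2 summit had to lie inside.

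**Figure D3:**
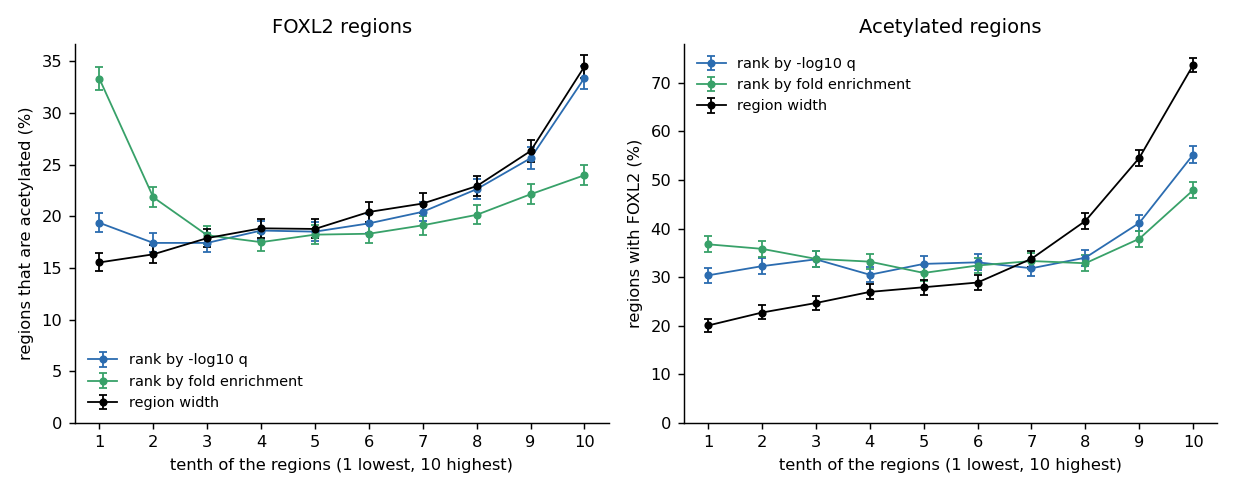
Share of FOXL2 regions that are acetylated (left, %) and of acetylated regions with FOXL2 (right, %) in deciles of the regions ordered by rank on −log10 q, by rank on fold enrichment and by width, with 95% Wilson intervals. Width carries the steepest rise on the right, from 20.0% to 73.7%, and fold enrichment is high at both ends on the left.

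The strongest regions of each kind name different genes. By mean rank over all 4 lists, the leading shared region, counting 1 FOXL2 region per acetylated region, was at Cga, the gene of the α subunit that all glycoprotein hormones share. It lay at chr4:34893245-34894639, a stretch of 1395 bp that includes the Cga start, and was classed as intron at 156 bp from that start. The region had FOXL2 ranks of 99.9 and 99.5 and FOXL2 fold enrichments of 42.3 and 30.8. It overlapped an acetylated region of 11774 bp ranked 99.8 in both libraries. Next came a region in an intron 50.5 kb from the start of the antisense gene Gm13938 (chr2:76772626-76773865, FOXL2 ranks 99.4 and 99.4) and intergenic regions 201.5 kb from Gm24795 and 591.2 kb from Gm25453. The fifth was at Gnrhr, the receptor through which GnRH reaches the gonadotrope, at chr5:86191404-86192449 in an intron, 5.99 kb from the start, with FOXL2 ranks of 99.7 and 99.4 and folds of 42.8 and 33.6.

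A second shared region stood at the Gnrhr start, with FOXL2 ranks of 80.6 and 86.6, at chr5:86197708-86198409. The 160 bases around its summit, from -238 to -79 relative to the RefSeq start on the - strand (chr5:86197980-86198139, GRCm38.p6), are shown with the 7 bases at the summit in capitals.

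Gnrhr: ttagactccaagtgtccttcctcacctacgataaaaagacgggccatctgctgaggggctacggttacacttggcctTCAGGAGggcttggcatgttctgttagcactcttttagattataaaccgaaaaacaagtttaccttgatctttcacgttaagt

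None of the 3 motifs searched was in the whole promoter window of Gnrhr, which says only that those letters are not there.

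The strongest FOXL2-only regions, chosen by FOXL2 rank alone and not by the rule for shared regions, were all more than 10 kb from the nearest start. The first was intergenic at chr2:19135401-19136223, 32.7 kb from the pseudogene Gm13332, ranked 100 in both libraries with folds of 67.8 and 62.5. Prkar2b, a regulatory subunit of protein kinase A, had one in an intron 43.2 kb from its start, with folds of 76.1 and 76.8. The others were 126.8 kb from Gm29418 (folds 86.9 and 82.7), in an intron of Meis2, a homeobox cofactor gene, 102.0 kb from its start (51.6 and 42.6), and 77.0 kb from A330050F15Rik (55.7 and 52.5).

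Acetylated-only regions of highest H3K27ac rank lay close to starts. They were in an exon 4.31 kb from Nr1d1, a circadian repressor, at chr11:98774162-98775299 (folds 10.99 and 10.7), 2.66 kb from Mir375 (12.4 and 11.9), 1.89 kb from Gm28760 in the acetylated region over the Pitx1 start (14.3 and 14.4), 4.82 kb from Fgd2 and 1.61 kb from Ptma.

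Counts per nearest gene had another order. Ccser1 was nearest to 129 FOXL2-only regions and 10 shared FOXL2 regions, Rbfox1, an RNA splicing factor gene, to 72 and 22, Agbl1 to 58 and 18, Pcdh17 to 53 and 5, and Cntn4 to 48 and 16. Shared FOXL2 regions were most numerous near Foxp2, a forkhead factor gene (30, beside 22 FOXL2-only), then Rbfox1 (22), Shisa9 and Tox (21 each) and Rorb (20). Acetylated-only regions were most numerous near Prelid2 (18), Myt1l and Spock1 (13 each) and Irx1 and Kcnma1 (12 each). These counts were not set against the length of the genes or of the stretches around them.

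The series concerns enhancers of Fshb, so the hormone and receptor genes of the gonadotrope were read one by one, and the kinds parted there. Within 50 kb of the Cga start lay 14 shared FOXL2 regions and 3 FOXL2-only regions, with 5 acetylated regions. Gnrhr had 5 shared and 8 FOXL2-only regions. Lhb, the LH β subunit gene, had 12 acetylated regions and no FOXL2 region of either kind within 50 kb of its RefSeq start, and the acetylated region over that start (2262 bp, H3K27ac ranks 64.1 and 67.7) held no FOXL2. Fshb had no acetylated region within 50 kb and 2 FOXL2-only regions, 17.2 kb upstream (-17.2 kb, chr2:107076344-107077285, FOXL2 ranks 91.1 and 82.5, folds 20.1 and 12.4) and 35.4 kb upstream (-35.4 kb, ranks 71.5 and 72.9). Within 100 kb it had 8 FOXL2-only and 4 shared FOXL2 regions, the strongest shared one 67.5 kb upstream (-67.5 kb, ranks 96.9 and 97.6).

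**Figure D4:**
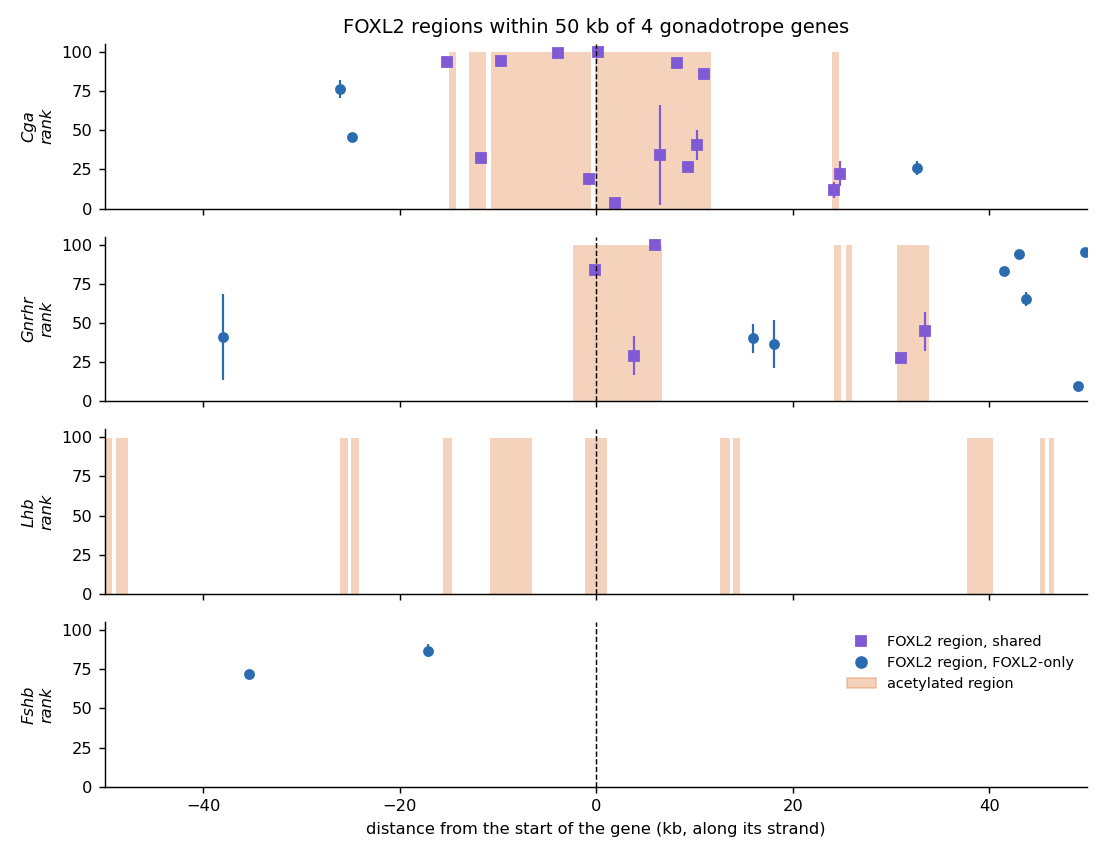
FOXL2 regions within 50 kb of the starts of Cga, Gnrhr, Lhb and Fshb, by distance along the gene's strand (kb, x axis) and percentile rank (y axis), with marks at the mean and bars joining the 2 FOXL2 libraries; orange bands are acetylated regions. Cga has 14 shared regions, Lhb has acetylated regions with no FOXL2, and Fshb has 2 FOXL2-only regions and no acetylated region.

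Gene lists were read by whether an acetylated region lay within 500 bp of any known start, called an acetylated start, which checks the label of the cells. Over 20217 protein-coding genes with a known start, 47.7% had an acetylated start. Of the gonadotrope hormone and receptor genes 3 of 4 had one (Lhb, Cga and Gnrhr, not Fshb), and of 13 gonadotrope transcription factors 11 had one. The acetylated regions at the starts of the latter ranged in H3K27ac rank from 43.4 to 99.9 in replicate 1 and from 48.7 to 99.9 in replicate 2. Among the weaker were Lhx3 (70.6 and 48.7) and Otx1 (56.6 and 65.4), both homeobox factors. Nr5a1, the nuclear receptor SF-1, had 2 such regions (98.0 and 97.6, 76.1 and 85.6). Among the strongest were Pitx1 (99.9 and 99.9), a pituitary homeobox factor, and Isl1 (98.7 and 99.0), a LIM homeobox factor. Foxl2 itself had an acetylated start (89.6 and 88.6) with no FOXL2 region there and 2 shared regions within 50 kb. Of 12 genes of other pituitary lineages 3 had an acetylated start, Crhr1, Neurod1 and Drd2, while Pomc, Prl, Tshb and Pou1f1 had none. None of 12 brain and muscle genes and none of 13 liver and blood genes had one. No RNA was measured here, and acetylation of a start is not a transcript level.

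Shared regions were counted against a background of 38.5% of genes with one within 50 kb. The count was 10 of 13 for gonadotrope transcription factors (Isl1 10, Nr0b1 6), 17 of 25 for the activin, inhibin and BMP pathway, 9 of 15 for secretory granule genes (Vamp2 9, Scg3 6, Chga 5), 14 of 19 for ribosomal protein genes (Rps14 10, Rpl4 6) and 10 of 18 for forkhead factor genes (Foxp2 18, Foxp1 7). It was 3 of 12 for other pituitary lineages, where Neurod1, a neuroendocrine factor, had 18, and 3 of 12 for granulosa and ovarian FOXL2 genes. It was 0 of 6 for pituitary stem and supporting cell genes, 2 of 12 for brain and muscle and 5 of 13 for liver and blood. Ribosomal protein genes thus had a share close to that of the gonadotrope factors, and all lists were small.

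FOXL2-only regions lay within 50 kb of 69.1% of genes. Here the lists were closer together: 11 of 13 gonadotrope factors, 11 of 12 genes of other pituitary lineages (Prl 9, Avpr1b 6), 19 of 25 of the activin pathway, 10 of 13 liver and blood genes and 7 of 12 brain and muscle genes. Acetylated-only regions lay within 50 kb of 67.4% of genes, including 11 of 13 gonadotrope factors and 19 of 19 ribosomal protein genes.

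**Figure D5:**
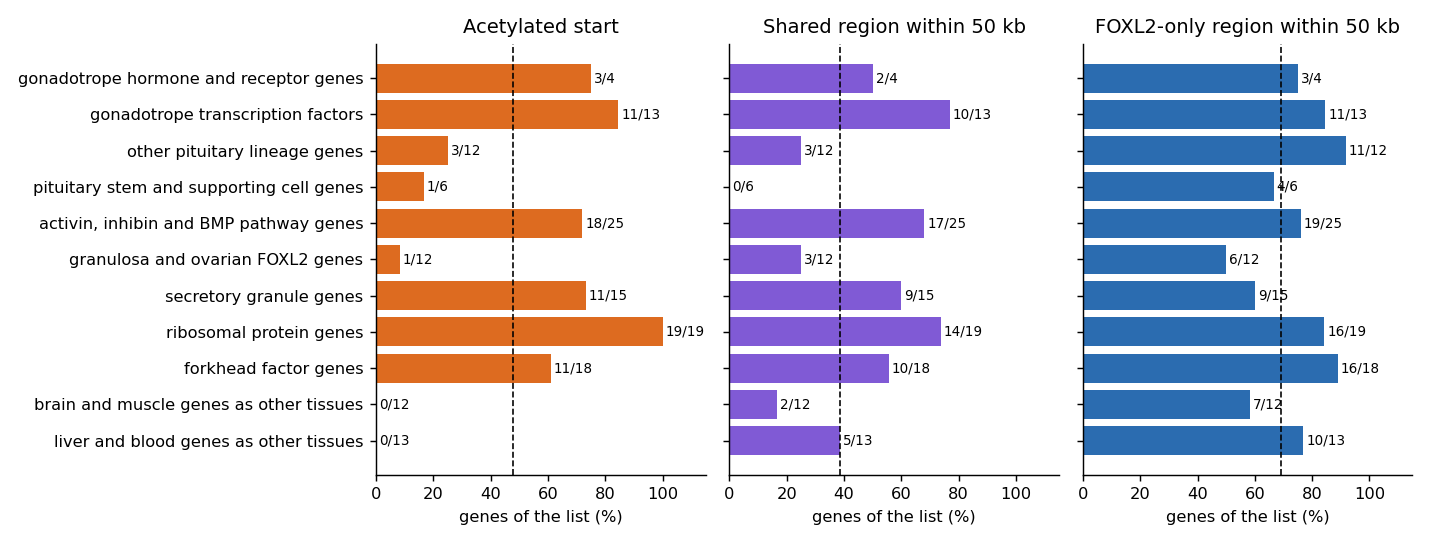
Share of genes of each list (%, with counts at the bars) with an acetylated start, with a shared region within 50 kb and with a FOXL2-only region within 50 kb, beside the same share over 20217 genes as a dashed line (47.7%, 38.5% and 69.1%). The lists lie between 0 and 100% for acetylated starts and closer together for FOXL2-only regions.

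Counted by nearest gene, which gives each region to 1 gene, 16.9% of all protein-coding genes had a shared region, 38.2% a FOXL2-only region and 39.5% an acetylated-only region. Shared regions were assigned to 7 of 13 gonadotrope factors and 15 of 25 activin pathway genes, and FOXL2-only regions to 6 and 16. Acvr1b, the type I activin receptor, had 5 shared regions within 50 kb, Acvr2a, a type II receptor, had none beside 9 FOXL2-only regions, Bmpr2, a BMP type II receptor, had 4 and 21, and Tgfbr1 had 0 and 19. Smad3, an activin-regulated SMAD, had 4 shared and 2 FOXL2-only regions. Inhba, the inhibin βA subunit, had neither.

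At the start itself FOXL2 was uncommon: 7.25% of genes had a FOXL2 region within 500 bp of a start, and 6.22% had it together with an acetylated start. The FOXL2 region and the acetylated region of such a gene need not overlap: Acvr2a had both but no shared region within 50 kb. FOXL2 was at the start for 2 of 4 hormone and receptor genes (Cga and Gnrhr), 7 of 25 activin pathway genes (Acvr1b, Acvr2a, Bmpr2, Tgfbr3l, Smad2, Smad6 and Smad7) and 1 of 13 gonadotrope factors (Nr0b1, the nuclear receptor DAX-1). The count was 2 of 15 for secretory granule genes, 2 of 19 for ribosomal protein genes, 2 of 18 for forkhead factor genes and 1 of 12 for brain and muscle genes. No gene of the other pituitary lineage, stem and supporting cell, granulosa and ovarian, or liver and blood lists had it. Among the 9649 genes with an acetylated start 13.03% had FOXL2 at the start, and among the 10568 without 1.98%. The former had a median of 1 shared and 3 FOXL2-only regions within 50 kb, and the latter 0 and 1. FOXL2-only regions, although outside the acetylated regions, were also more numerous around genes with an acetylated start, a description over genes that are not replicates. Known starts include those of transcripts nearest to several peaks, so a gene near more peaks can have more starts. The acetylated start and the counts around a gene are therefore not independent, and the part of this in the values was not tested.

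FOXL2 regions of highest rank in the promoter class and within 1000 bp of a protein-coding start, chosen after their values were seen, were Gm17604 (folds 53.4 and 52.6), Zfp251, Zmynd11, Purb and Cops7b where acetylated. Where not acetylated they were 2210404O09Rik (39.4 and 31.6), the olfactory receptor gene Olfr38, Spint4, Ptgis, the prostacyclin synthase gene, and Bmpr2 (34.4 and 32.3), whose start had an acetylated region nearby that did not reach the FOXL2 region.

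The other lists did not enter the rule, and the SMAD2/3 shares differed between the kinds. A SMAD2/3 peak of either vehicle library lay at 3.20% of shared FOXL2 regions (468 of 14629) and at 0.0961% of FOXL2-only regions (52 of 54119). Those SMAD2/3 lists held 605 and 144 peaks. After activin, SMAD2/3 peaks of both libraries lay at 16.6% and 2.38%. In the strongest quartile of FOXL2 regions by rank the values were 26.3% and 5.62%. Of acetylated-only regions 2.83% had SMAD2/3 after activin, against 19.6% of acetylated regions with FOXL2, which were also wider. FOXL2 itself was found in both activin libraries at 83.3% of shared and 86.4% of FOXL2-only regions, and H3K27ac in both at 77.8% and 3.89%. The kinds were set by vehicle peaks of these same 2 targets, so these activin shares are not independent of the rule. With either activin library counted, 6.72% of FOXL2-only regions touched an H3K27ac peak. These are shares of regions in the same libraries and were not tested.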

How the data were processed

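The analysis used 4 vehicle libraries, 2 for FOXL2 and 2 for H3K27ac. The submitters' processing notes name Bowtie2, MACS2 and HOMER and the build GRCm38 (mm10), without versions. Each deposited list names 1 library in its peak names, so calling was per library. For every peak the deposited columns hold a fold enrichment, which is a ratio to a background not given in the sources used here, the −log10 of p and q, and a score equal to 10 times −log10 q in nearly all peaks. They are the authors' values and served only to rank or filter within a list. The labels state 20000000 reads per library, and actual depth is unknown. Genomic class, nearest gene and distance are the authors' HOMER values. Coordinates are in the build of the deposited files, counted from 1. Regions were merged, overlapped and counted in Python 3.11.15 (numpy 2.4.6, pandas 2.3.3), and the code was tested on simulated intervals. Gene starts came from RefSeq and from the deposited distances of transcripts nearest to several peaks of the 12 lists, so a gene could have several starts. Intervals are Wilson intervals at 95%. Libraries are the replicates: lists were compared by an exact permutation test, and contrasts within a library by exact sign flips, both two-sided. Named are the 5 strongest regions and the 5 genes with most regions of each kind, examples from the 11 gene lists, and Fshb. The members and lists were chosen with earlier results of these data known. Alternatives covered the overlap rule, thresholds, list length, ranking and each library.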

Additional observations from a re-analysis of the deposited data

Results flagged for a closer look

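The promoter share moved in opposite directions in the libraries of the 2 antibodies. Shared minus FOXL2-only regions gave 6.14 percentage points as the mean of the FOXL2 libraries, positive in both. Acetylated regions with FOXL2 minus those without gave -21.9 points as the mean of the H3K27ac libraries, negative in both. Both contrasts use the same overlaps, with promoter shares of 8.75% and 9.36%, set against 2.61% of FOXL2-only and 31.3% of acetylated-only regions. The opposite signs thus restate that the shared regions lie between the other kinds in promoter share. The difference between antibodies was not tested.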

How the results depend on the processing

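Over 80 values under alternatives other than leaving out a library, 64 were counted as the same, 10 as moved and 6 as turned. Differences counted as the same kept the sign of their mean, but their size could change. The width difference was 657.5 bp in the main setting and 1250 bp with the FOXL2 summit inside, and was counted as the same. So were the FOXL2 rank differences of 3.40 and 3.14, where the libraries differed in sign. The share of FOXL2 regions that were acetylated was 17.4% with 50% of the FOXL2 region covered, 16.9% with the summit inside, 13.7% at −log10 q of at least 5 and 24.3% with FOXL2 lists cut to 40398 peaks. The share of acetylated regions with FOXL2 was 28.1%, 26.4%, 35.3% and 22.6% under these, and 38.7% with a peak in either library. Of 148 list genes with a known start, 48 had a shared region by nearest gene and 74 within 50 kb, beside 16.9% and 38.5% of all genes. A FOXL2-only region was counted for 70 and 111 of the 148, beside 38.2% and 69.1% of all genes. The FOXL2 rank difference was -1.89 by fold enrichment. The H3K27ac rank difference was -9.79, -9.37 and -8.08 in the 3 narrower width quartiles, and the width difference -0.5 and -6 bp in the 2 narrowest, where width is matched by construction. For the ranks and shares the cause was not tested. The promoter contrasts kept their direction under all alternatives run, at 2.66 to 9.75 points for FOXL2 and -12.5 to -31.1 for H3K27ac, the 4 single-list pairings included.

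Without each library in turn, the share of FOXL2 regions acetylated ran from 18.9% to 22.6%, that of acetylated regions with FOXL2 from 30.8% to 41.4%, the FOXL2 promoter difference from 5.68 to 9.75 points, that of acetylated regions from -21.7 to -17.3, the distance difference from -7823 to -6032.3 bp, the FOXL2 rank difference from 8.44 to 9.56, the H3K27ac rank difference from 7.75 to 12.8, the width difference from 625 to 710.5 bp and the promoter difference between antibodies from -16.9 to -15.7 points. None changed direction.

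The labels number the libraries alike for both antibodies, and their library names share a letter, without saying that either marks shared chromatin. Across 14629 shared regions the rank differences between replicates had a correlation of -0.0045 between antibodies, and whether they share chromatin cannot be told from this. With the replicate block (FOXL2 replicate n with H3K27ac replicate n) the shares were 20.9% and 33.9%, the promoter differences 7.68 and -15.0 points, the distance difference -7009.5 bp, the rank differences 10.8 and 15.6 and the width difference 719 bp. The promoter difference between antibodies was -16.3 points with the replicate block (exact sign-flip p = 0.5). The depth reached is unknown, so a region without a peak is not shown to be unbound or not acetylated.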

Other observations

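The acetylated share of FOXL2 regions varied by chromosome, from 18.3% on chromosome 15 to 25.6% on chromosome 7, with 18.7% on X, around 21.3% in all. Processed pseudogenes were the nearest gene for 13.8% of FOXL2-only regions, 10.4% of shared FOXL2 regions and 6.25% of acetylated-only regions, and protein-coding genes for 50.0%, 53.9% and 67.8%. Shared FOXL2 peaks had median widths of 370 and 387 bp in the 2 libraries, and FOXL2-only peaks 339 and 324 bp. Acetylated-only regions lay 8564.5 bp from the nearest FOXL2 region in the median, and 54.0% lay within 10 kb of one.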
